A study of Homo sapiens with 8 samples.

Results

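The regions described here are stretches of chromosomes 1, 2, 4, 6, 7, 8, 10 and 14 at which DNA double-strand breaks (DSBs) were enriched in both replicates of U2OS-MycER cells silenced for CDK12 and in neither replicate of the matching control cells. They are called gained regions below, a name for their presence in the lists and not for a measured rise in breaks. Each was found by joining the regions of all 4 OHT-treated lists into their union, with touching regions fused, and by keeping the merged regions that shared at least 1 bp with both shCDK12+OHT lists and with no shNT+OHT list. This gave 1151 gained regions among 3868 merged regions on these 8 chromosomes (29.8% of them) and 6506 merged regions on all chromosomes. Because presence and absence in these same lists chose the regions, their number and their distance to shNT+OHT regions are a description and carry no test. The 8 chromosomes are those on which every one of the 4 lists held regions, so that absence from a control list was not absence of a whole chromosome.

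Cells were U2OS, a human osteosarcoma line, that express MycER, a Myc protein fused to the hormone-binding part of the oestrogen receptor and switched on by 4-hydroxytamoxifen (OHT). The shNT+OHT cells carried a non-targeting short hairpin RNA and the shCDK12+OHT cells a hairpin against CDK12, both delivered by virus and induced with doxycycline at 1 µg/mL. In both groups MycER was activated with OHT (300 nM, 40 h), cells were held in mitosis by nocodazole (100 ng/mL, 8 h), collected by shake-off and released for 18 h before fixation in 2% PFA. DSBs were then mapped by sBLISS, a sequencing assay in which an adapter is ligated to the break ends inside fixed cells in suspension. Each group had 2 replicates, nothing in the labels says whether these were separate cultures, and the level of CDK12 left after silencing was not measured in these files. The libraries of cells without OHT were not analysed here, so the state of the gained regions before MycER activation is not given.

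CDK12 is a kinase that, with its partner cyclin K, phosphorylates the tail of RNA polymerase II. It keeps the enzyme elongating, above all along long genes, some of which act in DNA repair. Oncogenic Myc raises transcription and drives cells into S phase, and collisions of the transcription and replication machineries are a known source of DSBs in such cells. Chromosome bands offer a coarse map of the same landscape: Giemsa-light bands are GC-rich, gene-rich and replicated early, whereas the darkest bands are AT-rich, gene-poor and replicated late.

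On the 8 chromosomes replicate 1 of shNT+OHT listed 1024 regions and replicate 2 listed 628, compared with 2543 in replicate 1 of shCDK12+OHT and 2049 in replicate 2. Gained regions contained 1154 of the shCDK12+OHT regions of replicate 1 (45.4%) and 1161 of those of replicate 2 (56.7%). The control lists covered 0.198 and 0.115% of the sequence length, and the shCDK12+OHT lists 0.605 and 0.447%. The lists give coordinates only. Library depth is thus unknown, and a region missing from a list can still hold breaks below the calling threshold. A higher yield in the shCDK12+OHT libraries and more breaks in these cells cannot be told apart from the lists, nor can more breaks per cell and more cells with a break at the same place. Since regions close to each other are not independent, the intervals below account for counting error alone. Coordinates are those of hg19, counted from 1. Genes and sequences of this build were not used here, and regions are placed by chromosome band.

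Gained regions were densest in Giemsa-light and palely stained bands and thinned out as bands became darker. Light bands held 625 of the 1151 gained regions (54.3%, 95% Wilson interval 51.4 to 57.2) on 42.8% of the sequence length. The darkest class of bands held 129 of them (11.2%, 9.51 to 13.2) on 18.0% of the length. Per megabase this was 1.04 gained regions in light bands, 1.07 in the palest stained class, 0.899 in the second, 0.650 in the third and 0.510 in the darkest class. Centromeric bands held 3 gained regions. Bands were not used to choose the regions.

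The regions listed only in shNT+OHT followed the opposite order. Light bands held 251 of these 800 regions (31.4%, 95% Wilson interval 28.3 to 34.7), and the darkest class held 261 (32.6%, 29.5 to 36.0). Their density rose from 0.418 per Mb in light bands to 1.03 per Mb in the darkest class. For each such region there were 2.49 gained regions in light bands, 4.53 in the palest stained class and 0.494 in the darkest class. The 2 classes are not alike, since gained regions had to be in both replicates of their group. Of the 800, 501 were listed in control replicate 1 alone and 235 in replicate 2 alone. The 64 listed in both control replicates had 35.9% in light bands (25.3 to 48.2) and 35.9% in the darkest class (25.3 to 48.2). Regions listed in 1 shCDK12+OHT replicate and in no shNT+OHT library resembled the gained regions, with 54.0% of 1366 in light bands and 12.2% in the darkest class. Regions listed in both groups lay between these classes, with 47.0% of 551 in light bands. No test was run over regions, which share libraries and chromosomes.

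**Figure D1:**
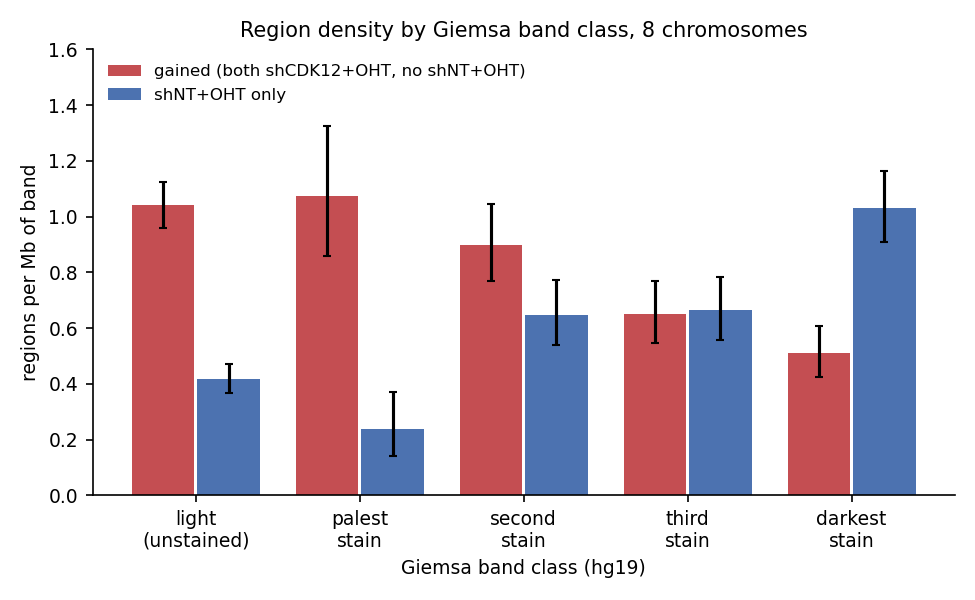
Number of regions per megabase (y axis) in each Giemsa band class of hg19 (x axis) on the 8 chromosomes, for gained regions (red) and regions listed in shNT+OHT only (blue), with exact Poisson 95% intervals for counting error as bars. Gained regions fell from 1.04 per Mb in light bands to 0.510 in the darkest, whereas the regions listed in shNT+OHT only went from 0.418 to 1.03. Gained regions had to be in both replicates of their group, whereas only 64 of the 800 regions listed in shNT+OHT only were in both.

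The same comparison was made over whole libraries, in which every listed region counts. Gained regions are among those counted in shCDK12+OHT and not in shNT+OHT, so the library shares are not independent of them. Light bands held 38.3% of the regions of shNT+OHT replicate 1 and 39.5% of those of replicate 2. With CDK12 silenced they held 54.5% in replicate 1 and 51.0% in replicate 2. Both shCDK12+OHT libraries were above, and both shNT+OHT libraries below, the 42.8% of the length that light bands take up. Among regions of at least 4 kb only the former held. There the shNT+OHT shares were 45.0 and 42.3%, on either side of this value, and the shCDK12+OHT shares 53.1 and 50.5%. The means were 38.9% ± 0.855 (SD, n = 2) and 52.8% ± 2.41 (SD, n = 2), a difference of 13.9 percentage points that exceeded the spread between replicates (two-sided exact permutation p-value 0.333, the smallest that 2 against 2 libraries allow). For the darkest class the library shares were 24.2 and 24.5% without CDK12 silencing, and 10.5 and 13.9% with it. The means differed by -12.2 percentage points, again at an exact permutation p-value of 0.333. The number per megabase was higher in shCDK12+OHT in every band class. The mean number per megabase was 3.80-fold higher in shCDK12+OHT in light bands (0.533 ± 0.169 against 2.02 ± 0.399, SD, n = 2) and 1.37-fold higher in the darkest class (0.794 ± 0.263 against 1.09 ± 0.0475, SD, n = 2). From the palest to the second-darkest stained class the ratio was 6.10, 2.70 and 2.09. Each of the 5 ratios had an exact permutation p-value of 0.333, before and after Benjamini-Hochberg adjustment, the smallest possible.

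**Figure D2:**
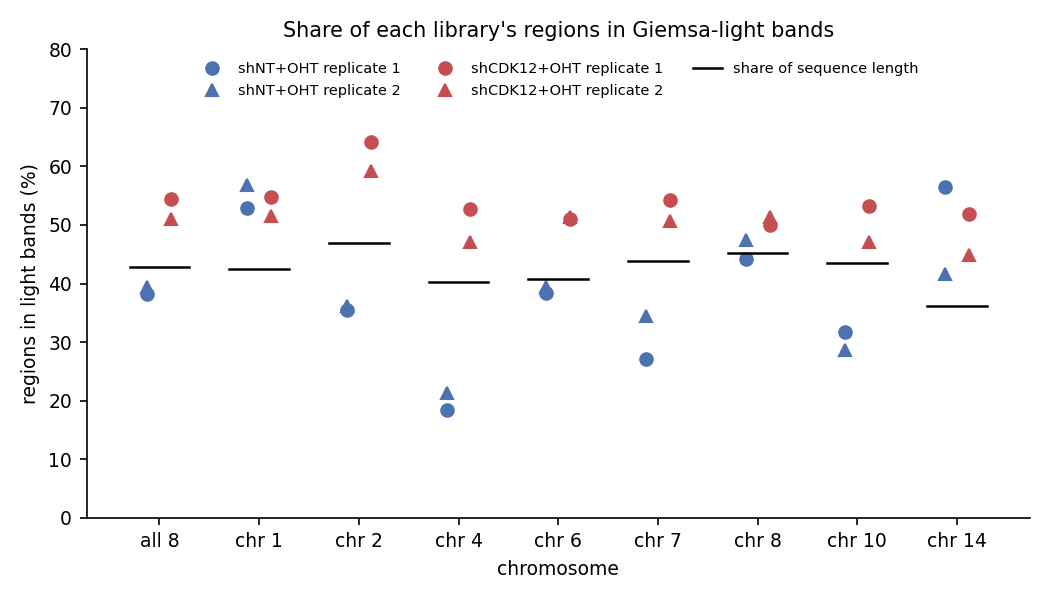
Percentage of the regions of each library that lay in Giemsa-light bands (y axis), over all 8 chromosomes and on each chromosome (x axis), with shNT+OHT in blue, shCDK12+OHT in red, circles for replicate 1 and triangles for replicate 2. Black lines mark the share of sequence length in light bands. Over all 8 chromosomes both shCDK12+OHT libraries (54.5 and 51.0%) lay above both shNT+OHT libraries (38.3 and 39.5%), and the groups overlapped on chromosomes 1 and 14.

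Single chromosomes differed in how far the band pattern held. Both shCDK12+OHT libraries had a higher light-band share than both shNT+OHT libraries on 6 of 8 chromosomes (75%). Chromosome 4 showed the widest separation, with 18.4 and 21.3% in shNT+OHT against 52.7 and 47.1% in shCDK12+OHT. On chromosome 2 the shares were 35.5 and 36.1% against 64.2 and 59.2%. Chromosome 8 showed the narrowest separation, with 44.1 and 47.4% against 50 and 51.3%. The groups overlapped on chromosome 1 (52.9 and 56.8% against 54.8 and 51.5%) and on chromosome 14 (56.4 and 41.7% against 51.9 and 44.9%). Among the gained regions themselves the light-band share ran from 48.0% on chromosome 14 to 61.0% on chromosome 2. It exceeded the share of the regions listed in shNT+OHT only on 7 of 8 chromosomes, the exception being chromosome 14 (48.0 against 53.5%). On chromosome 1 the regions listed in shNT+OHT only numbered 28, with 25% in light bands. The share of gained regions there was 49.5%, below the 52.9 and 56.8% of the whole shNT+OHT libraries.

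The light-band share of gained regions ran from 50.4 to 58.7% over 4 classes of width, whose intervals overlapped. Light bands held 54.8% of the 578 gained regions of 2 kb, 56.0% of those of 4 kb, 50.4% of those of 6 kb and 58.7% of the 104 of 8 kb and over. They held 51.2% of gained regions up to 10 kb from a shNT+OHT region and 57.0% of those 1 to 10 Mb away, and 51.8 to 59.6% in the other distance classes.

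Gained regions were present on every chromosome of the set, in numbers from 103 on chromosomes 7 and 10 to 218 on chromosome 2. Chromosome 1 held 210, chromosome 6 held 143, chromosome 8 held 128, chromosome 14 held 125 and chromosome 4 held 121. As a share of all merged regions of a chromosome they made up 42.6% on chromosome 6 and 39.6% on chromosome 1, and 21.9% on chromosome 7 and 17.3% on chromosome 8, around the 29.8% over all 8. The last 2 chromosomes are those with most shNT+OHT regions, 333 and 209 on chromosome 8 and 173 and 96 on chromosome 7. Their merged regions numbered 740 and 470. Chromosome 8 had 0.875 gained regions per Mb, so a low share there did not go with a low density. On chromosome 7 it did, at 0.647 per Mb. Relative to length, chromosome 14 had the highest density, 1.16 gained regions per Mb (exact Poisson 95% interval 0.969 to 1.39), and chromosome 4 the lowest, 0.633 per Mb (0.525 to 0.756).

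By arm, 62.8% of gained regions lay on long arms, which make up 64.9% of the length. The density by arm, with centromeric and heterochromatic bands left out, ranged from 0.431 per Mb on 7q (0.311 to 0.583) to 1.42 per Mb on 14q (1.18 to 1.69). Chromosome 7 was the most uneven: 61 of its 103 gained regions lay on the short arm, at 1.05 per Mb (0.804 to 1.35), against 42 on the longer 7q. The control lists had the reverse order there, with 39 and 26 regions on 7p but 134 and 70 on 7q. With CDK12 silenced there were 125 and 112 regions on 7p and 102 and 85 on 7q. Chromosome 1 held 130 gained regions on the short arm (1.07 per Mb, 0.894 to 1.27) and 80 on the long arm (0.750 per Mb, 0.595 to 0.934). The intervals of both arms overlapped on chromosomes 1, 2, 4, 6, 8 and 10. U2OS cells carry gains and losses of chromosome segments, and the part of copy number in these densities was not tested.

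Over whole libraries the long-arm share was 66.4 and 66.2% for the controls, compared with 61.7 and 63.0% after CDK12 silencing. The difference between the means, -3.95 percentage points with an exact permutation p-value of 0.333, did not hold for every way of counting. It was -0.325 percentage points with equal weight for each of the 7 chromosomes with regions on both arms, 13.3 percentage points among regions of at least 4 kb and 0.834 percentage points by covered length. The groups overlapped with equal weights, by covered length and over all chromosomes.

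**Figure D3:**
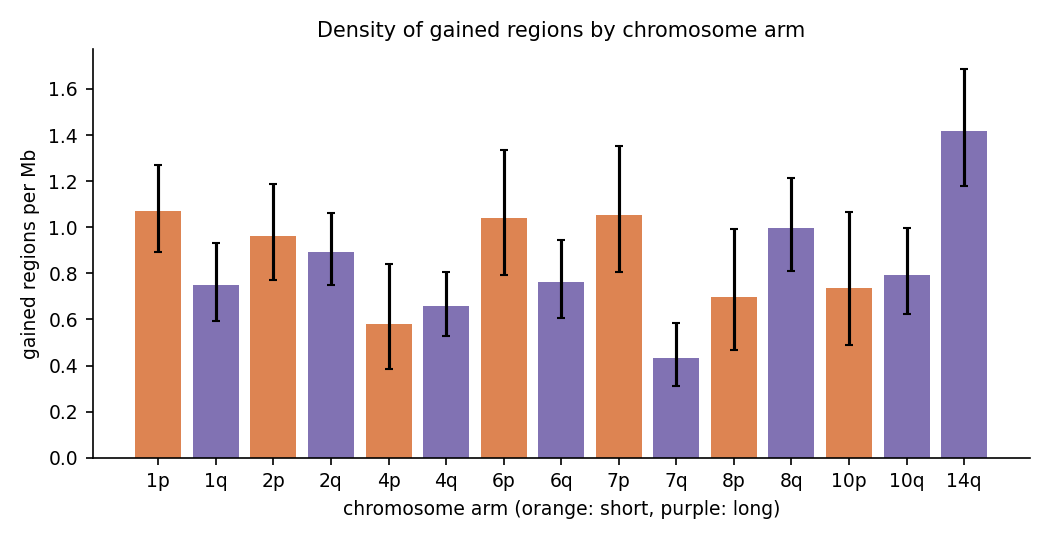
Gained regions per megabase (y axis) on each chromosome arm (x axis; p, short arm, orange; q, long arm, purple), with centromeric and heterochromatic bands left out of the length and exact Poisson 95% intervals for counting error as bars. Density ran from 0.431 per Mb on 7q to 1.42 per Mb on 14q.

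Within 5 Mb of a chromosome end lay 39 gained regions (3.39%, 95% Wilson interval 2.49 to 4.60), on 5.70% of the length. Only 7 of the 800 regions listed in shNT+OHT only lay there (0.875%, 0.424 to 1.80), and 23 of the 551 listed in both groups (4.17%). The share was 4.98% among regions of 1 shCDK12+OHT replicate alone and 3.54% among all merged regions, close to that of the gained regions.

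Next, the width of gained regions was examined. Starts and ends of all lists fell on a 2 kb grid, the smallest gap between neighbours in a list was 4 kb, and a region of 2 kb is therefore a single bin. Of the gained regions 578 (50.2%) were a single bin, 193 were 4 kb, 276 were 6 kb, 82 were 8 kb and 22 were wider. The mean was 3.89 kb ± 2.25 (SD over the 1151 regions) and the widest spanned 16 kb. For comparison, single bins made up 91.2% of the regions of 1 shCDK12+OHT replicate alone, 94.1% of those listed in shNT+OHT only and 38.3% of those listed in both groups. Presence in more lists favours wide regions by construction, so these widths are set side by side without a test.

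Start and end were identical in both shCDK12+OHT replicates in 767 of 1151 gained regions (66.6%). Of these, 578 were single bins, which are identical by construction, so placement could differ only in the 573 wider regions, and 189 of those were identical. Replicate 1 listed more of the region in 276 cases and replicate 2 in 87, and the listed length averaged 3.59 kb in replicate 1 and 3.07 kb in replicate 2 (mean 3.33 kb ± 0.370, SD, n = 2). In 23 gained regions (2.00%) the replicates shared no base and met only by abutting. The longer lists of replicate 1 went with longer listed stretches, and the part of library yield in this was not tested.

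The widest of all was chr1:94700001-94716000 in band 1p21.3, which replicate 1 listed over its whole 16 kb and replicate 2 over 12 kb. It lay 2846 and 4354 kb from the nearest regions of shNT+OHT replicates 1 and 2. The next in length, chr14:69614001-69628000 in the light band 14q24.1, was listed over 14 kb in replicate 1 and in pieces of 6 kb in all in replicate 2. Next was chr2:55268001-55280000 in the darkest-class band 2p16.1, listed over the same 12 kb by both replicates, 364 kb from both control lists. Replicates thus overlapped fully in the last of these and in part in the others.

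The longest gained regions of other chromosomes were 8 to 12 kb wide. On chromosome 4 this was chr4:109084001-109096000 in the light band 4q25, listed over 12 kb in replicate 1 but over 2 kb in replicate 2. On chromosome 10 it was chr10:22626001-22638000 in the light band 10p12.2, with 12 and 8 kb listed, only 12 kb from a region of each control replicate. Chromosome 8 had chr8:120214001-120226000 in 8q24.12, where replicate 1 listed 8 kb and replicate 2 listed 6 kb, 62 and 88 kb from the control lists. On chromosome 7 it was chr7:77160001-77170000 in the light band 7q11.23, with 10 and 4 kb listed. On chromosome 6 it was chr6:43544001-43552000 in the light band 6p21.1, with 8 and 4 kb listed. In all of these the summed listed length was greater in replicate 1.

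The distance of gained regions to the nearest shNT+OHT region had a median of 782 kb, with quartiles at 213 and 2470 kb and a range from 2 to 21304 kb. To the longer list of shNT+OHT replicate 1 the median was 1050 kb, and to that of replicate 2 it was 1946 kb. By class of distance, 41 gained regions (3.56%) lay up to 10 kb from a control region, 124 (10.8%) at 10 to 100 kb, 471 (40.9%) at 100 kb to 1 Mb, 463 (40.2%) at 1 to 10 Mb and 52 (4.52%) beyond 10 Mb. Regions of 1 shCDK12+OHT replicate alone lay closer, with a median of 493 kb. Absence of a control region is part of the rule, so these distances are a description. Without shNT+OHT replicate 1 the median was 1700 kb, and among regions of at least 4 kb in all lists it was 9522 kb. By chromosome the median was 236 kb on chromosome 14, 374 kb on chromosome 8 and 424 kb on chromosome 7, and 1066 kb on chromosome 4 and 1918 kb on chromosome 6.

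**Figure D4:**
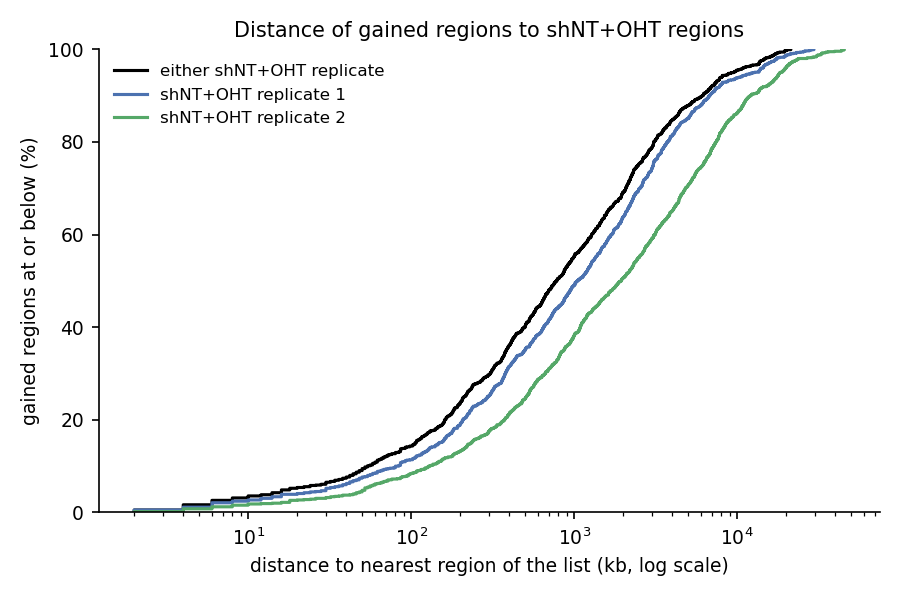
Cumulative percentage of the 1151 gained regions (y axis) by distance in kb on a log scale (x axis) to the nearest region of shNT+OHT replicate 1 (blue), replicate 2 (green) or either (black). The medians were 1050, 1946 and 782 kb.

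The 5 most distant gained regions all lay in light bands toward chromosome ends and were 2 or 4 kb wide. On chromosome 14 they were chr14:104096001-104098000 in 14q32.33, 21304 kb from the nearest control region, and chr14:103060001-103062000 and chr14:102432001-102434000 in 14q32.31, at 20268 and 19640 kb. Both shCDK12+OHT replicates listed the same bin in each of these 3. On chromosome 4, chr4:6786001-6788000 in 4p16.1 lay 20076 kb from a control region and 8218 kb from the next gained region. On chromosome 8, chr8:6566001-6570000 in 8p23.1 lay 19580 kb away, and its 2 kb in replicate 1 and 2 kb in replicate 2 abutted without a shared base.

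At the edge of the rule, 6 gained regions were separated from a control region by a single 2 kb bin, and 19 by at most 4 kb. Among them, chr7:79366001-79368000 in the darkest-class band 7q21.11 was listed in both shCDK12+OHT replicates and stood 2 kb from regions of both control replicates, and so did chr7:50130001-50136000 in the light band 7p12.2. The others named by distance, chr4:30660001-30662000, chr7:55432001-55434000 and chr8:133784001-133790000, stood 2 kb from replicate 1 and 32, 592 and 100 kb from replicate 2. Just outside the rule were 333 merged regions listed in both shCDK12+OHT replicates that a control list touched. Only 1 control replicate touched 188 of these, replicate 1 in 145 and replicate 2 in 43. In 242 of the 333 (72.7%) the control lists shared exactly 2 kb with the shCDK12+OHT lists, and in 7 they only abutted.

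Presence in both shCDK12+OHT lists is part of the rule, so recurrence cannot be read from the gained regions themselves. It was read instead in other sets, chosen on 1 library of each group and looked up in the remaining libraries. Regions listed in shCDK12+OHT replicate 1 and not in shNT+OHT replicate 1 numbered 2161, of which 1174 (54.3%, 95% Wilson interval 52.2 to 56.4) were listed in shCDK12+OHT replicate 2 and 66 (3.05%, 2.41 to 3.87) in shNT+OHT replicate 2. With the choice made on replicates 2, 1280 of 1796 (71.3%, 69.1 to 73.3) were listed in shCDK12+OHT replicate 1 and 173 (9.63%, 8.35 to 11.08) in shNT+OHT replicate 1. The opposite choice gave lower and less one-sided shares. Of 634 regions listed in shNT+OHT replicate 1 and not in shCDK12+OHT replicate 1, 73 (11.5%, 9.26 to 14.2) were listed in shNT+OHT replicate 2 and 59 (9.31%, 7.28 to 11.8) in shCDK12+OHT replicate 2. Of 371 such regions chosen on replicates 2, 86 (23.2%, 19.2 to 27.7) and 61 (16.4%, 13.0 to 20.6) were listed in the other shNT+OHT and shCDK12+OHT library. The lists differ in length, which limits how often a shorter one can list a region again. The choice also removed regions shared between the groups, which weighed more on shNT+OHT. Of merged regions in both shNT+OHT replicates, 145 were in both shCDK12+OHT lists, 32 and 26 in replicate 1 or 2 alone and 64 in neither. Of 1484 in both shCDK12+OHT replicates, a control list touched 333. The whole lists of replicates 1 and 2 held 2543 and 2049 regions in shCDK12+OHT, and 1024 and 628 in shNT+OHT. Recurrence between the replicates of a group was thus not confined to the chosen sets. Shares over all regions of a library were not computed, so whether the contrast is particular to the chosen sets is not known. In the full rule, regions that favour shNT+OHT in both replicates numbered 64 (1.65% of the merged regions).

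**Figure D5:**
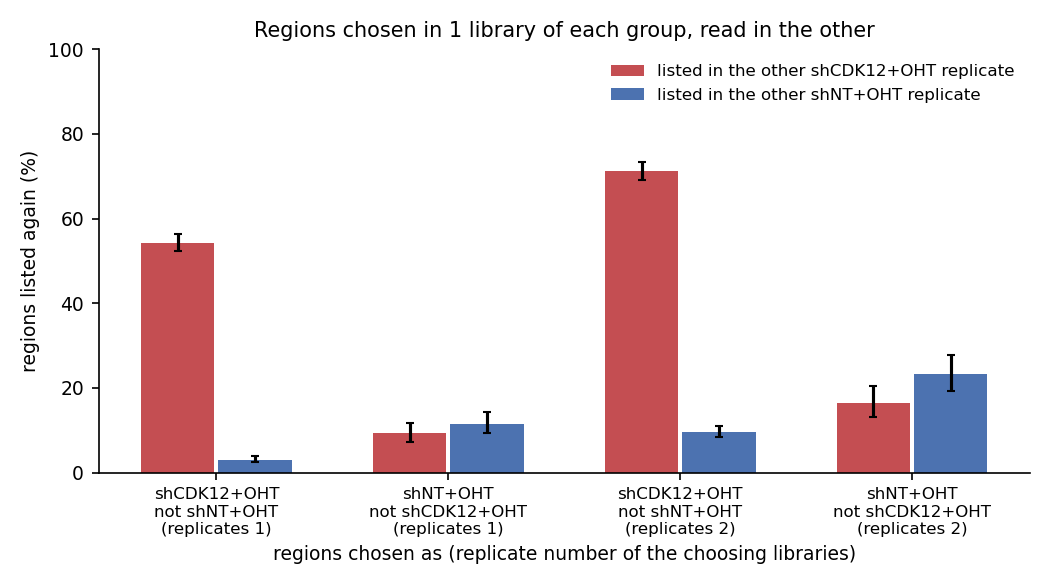
Percentage of regions chosen in 1 library of each group (x axis: direction of the choice and number of the choosing replicates) that were listed in the other shCDK12+OHT replicate (red) or the other shNT+OHT replicate (blue), with Wilson 95% intervals for counting error. Regions chosen as shCDK12+OHT and not shNT+OHT were listed again by shCDK12+OHT in 54.3 and 71.3% and by shNT+OHT in 3.05 and 9.63%. The opposite choice gave 9.31 to 23.2% in either group. The lists differ in length, and the choice removed regions shared between the groups, which weighed more on shNT+OHT. Shares over all regions of a library were not computed.

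The distance from one gained region to the next nearest had a median of 250 kb (quartiles 104 and 588 kb), and 24.3% had another within 100 kb. This share depends on the distance chosen, with 12.3% within 50 kb and 69.9% within 500 kb, and it was 42.7% without shCDK12+OHT replicate 2. When those within 100 kb were joined into chains, 871 stood alone, 102 pairs and 20 triplets formed, and 4 chains held 4 gained regions each. The latter were chr1:113180001-113316000 in 1p13.2, chr7:27128001-27238000 in 7p15.2, chr14:50996001-51146000 in 14q22.1 and chr14:60950001-61112000 in 14q23.1. The chain on 7p15.2 was the most compact, with 16 kb of gained regions in a span of 110 kb and no control region within 884 kb.

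By comparison, 50.3% of the regions listed in shNT+OHT only and 45.4% of those listed in both groups had another of their own class within 100 kb, as did 34.6% of the regions of 1 shCDK12+OHT replicate alone. The nearest merged region of any class was another gained region for 40.7% of gained regions, a region of 1 shCDK12+OHT replicate for 41.7%, a region listed in both groups for 8.34% and one listed in shNT+OHT only for 9.21%. These classes made up 29.8, 35.3, 14.2 and 20.7% of all merged regions. They are given as a description, since all regions share the same libraries.

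In windows of 1 Mb, 765 of 1409 windows held no gained region, 342 held 1 and the fullest held 7. The 3 fullest all lay on 14q. The window chr14:55000001-56000000 in 14q22.3 held 7 gained regions, with 12 and 8 regions listed in shCDK12+OHT and none in either shNT+OHT library. The window chr14:64000001-65000000 in 14q23.2 also held 7, with 11 and 10 regions in shCDK12+OHT and 2 and 1 in shNT+OHT. The window chr14:61000001-62000000 in 14q23.1 held 6, beside 4 and 1 shNT+OHT regions. There were 16 windows with 5 each, of which the first by position were chr1:65000001-66000000 in 1p31.3 and chr1:109000001-110000000 in 1p13.3.

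The longest stretches without a gained region, centromeres aside, ran from 7.14 to 15.6 Mb per chromosome. The longest was chr6:89794001-105386000, from 6q15 to 6q16.3, of which 71.7% was band of the darkest class. It held no shNT+OHT region and 2 regions in each shCDK12+OHT replicate. On chromosome 4 a stretch of 10.3 Mb, chr4:129736001-140006000, held no region in any of the 4 libraries, and 81.8% of it was of the darkest class. On chromosome 2 the stretch chr2:75938001-85196000, with 79.5% of the darkest class, held 12 and 6 shNT+OHT regions and 1 and 3 shCDK12+OHT regions. The darkest class also made up 85.8% of the stretch on chromosome 1 (9.85 Mb) and 86.0% of that on chromosome 14 (8.01 Mb), but none of those on chromosomes 7, 8 and 10.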

How the data were processed

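The deposited files list the chromosome, start and end of break-enriched regions, 1 list for each of the 4 OHT libraries, with no count or score. The submitters' processing notes name hg19. Of 8 labelled libraries, the 4 with OHT were analysed. The methods of a later study that reused the shNT+OHT lists describe UMI-based removal of PCR duplicates, 2 kb bins, a UMI threshold and joining of called bins. They also describe down-sampling of break locations to the sample with the fewest. Whether all 4 lists were made so, down-sampling included, is not given in the sources used here. All ends lay within hg19 chromosomes.

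Lists were joined and compared in Python 3.11.15 (numpy 2.4.6, pandas 2.3.3), with overlap of at least 1 bp. Bands and arms came from the hg19 band table of the R package circlize 0.4.16, taken at the region midpoint. Wilson intervals came from statsmodels 0.14.6 and exact Poisson intervals from scipy 1.17.1. Libraries were compared by two-sided exact permutation, and pairs of libraries by exact flipping of the signs of their differences. The region rule, distances and band placement were tested on simulated data with planted regions.

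Regions were named by rule: the longest of each chromosome and the 3 longest of all, the 5 farthest from and nearest to control regions, the 5 fullest 1 Mb windows, the longest stretch without a gained region on each chromosome, and the longest chains. The gained regions and these rules were chosen with earlier results of these data known. Genes and sequences are not given, because the reference used is of another build.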

Additional observations from a re-analysis of the deposited data

How the results depend on the processing

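Of 100 alternatives over 10 results, 72 were labelled unchanged, 25 moved and 3 reversed. Shares had to stay within their 95% Wilson interval, mean width within the SD between replicates, and differences had to keep their sign. The number of gained regions had only to stay within a set fold, so 1606 against 1151 passed. For the median distance the limit was the SD between its medians to the 2 control lists (634 kb), so 1117 against 782 kb passed. The pairings by replicate number, counted as unchanged, could not alter a difference. The reversals concern the long-arm difference of -3.95 percentage points, which was 1.96 over all chromosomes, 13.3 among regions of at least 4 kb and 0.834 by covered length, while equal weights for 7 chromosomes (chosen after the data were seen) gave -0.325; the cause was not tested. The light-band difference of 13.9 percentage points kept its direction in all alternatives run, between 8.12 (regions of at least 4 kb) and 17.6 (palest stained bands counted as light); giving each chromosome equal weight (14.1) and leaving out chromosomes 7 and 8 (16.2) were chosen after the data were seen.

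With only regions of at least 4 kb, 374 gained regions remained, with a mean width of 6.46 kb, 50.8% in light bands, a median distance of 9522 kb to control regions, 11.5% with a neighbour within 100 kb and 51.7% found again in the other shCDK12+OHT library. Joining across 10 kb gave a mean width of 4.53 kb, 21.6% with a neighbour and 62.7% identical between replicates. Over all chromosomes there were 2210 gained regions, 67.4% of them on long arms, and without chromosome 14 (chosen after the data were seen) 58.3%. Counting palest stained bands as light gave 61.8%, neighbours within 50 and 500 kb 12.3 and 69.9%, and sharing of at least 50% of the joint length 83.1%. Recovery was 71.3% when chosen on the replicates numbered 2 and 60.4% within 10 kb.

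Leaving out libraries gave 1194 to 2085 gained regions (the highest without shCDK12+OHT replicate 2, where presence in 1 list suffices), mean widths of 2.80 to 4.03 kb, long-arm shares of 62.4 to 63.6%, light-band shares of 52.0 to 55.9%, median distances of 620.0 to 1700 kb (the highest without shNT+OHT replicate 1), 24.9 to 42.7% with a neighbour within 100 kb (the highest without shCDK12+OHT replicate 2) and 65.8 to 66.2% identical. The light-band difference was 12.2 to 15.6 and the long-arm difference -4.59 to -3.32 percentage points.

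Deviations of same-numbered replicates correlated at -0.139 over 5 Mb windows, 0.00527 over 2 Mb and -0.0741 over 10 Mb, so replicates were not taken as paired. Pairing libraries by replicate number, or by crossed numbers (chosen after the data were seen), returned 13.9 and -3.95 percentage points by construction. The mean of 2 paired differences equals the difference of the group means, so this was no further check. Each had an exact sign-flip p-value of 0.5, from changing the signs of the 2 paired differences, below which 2 pairs cannot go. Counts of regions remain limited by depth, which is unknown here.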
